A study of Mus musculus with 8 samples.

Results

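The genes described here encode the proteins of the cytosolic ribosome. They were chosen by symbol from the RNA-seq count table: every gene named Rpl or Rps followed by a digit, with Rplp0, Rplp1, Rplp2 and Rpsa, and without the 12 rows named as pseudogenes and the 10 rows of the Rps6k kinases. That gave 89 of 35976 gene symbols: 46 proteins of the large subunit, 31 of the small subunit and 12 paralogs, retrotransposed copies and others. The tested libraries came from Pdgfra-Tet3 KO mice (here KO), in which Tet3 was targeted in cells that express Pdgfra. They were compared with libraries from Tet3 f/f mice, which carry floxed Tet3 alleles (here WT). Both groups were male mice given a high fat diet for 6 weeks, with 3 RNA-seq libraries each. The cells were preadipocytes, the fat cell precursors, sorted from the stroma of iWAT, the inguinal white fat, as PDGFRa+ cells lacking CD45, TER119 and CD31. The gene that drives the knockout is thus also the gene of the sort, and the labels give no further detail of the driver or of the deleted exons. TET3 is an enzyme that oxidises methylated cytosine in DNA.

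The cytosolic ribosome translates the mRNAs made from nuclear genes, and most of its proteins are present in a single copy, and their genes are usually expressed together and strongly. Their mRNAs carry a run of pyrimidines at the 5′ end, the TOP motif, through which the kinase mTORC1 adjusts their translation. Many of these genes have left processed pseudogenes, copies made from the mRNA and inserted elsewhere in the genome, and reads from near-identical copies cannot always be placed on 1 gene.

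The libraries held between 1831218 and 2374978 counts. The 89 genes took 3.36%, 2.76% and 2.85% of all counts in KO libraries 1 to 3, and 2.83%, 3.02% and 2.71% in WT libraries 1 to 3. Dcn, a stromal matrix gene, had between 32068 and 41838 counts. Of 4 markers of mature fat cells, Plin1, Cidec and Lep had 0 counts in every library and Adipoq had at most 2. Of 6 leukocyte markers, Ptprc, Adgre1, Cd3e and Cd79a had 0 counts in every library, Csf1r had at most 14 and Cd68 at most 6. Of 5 endothelial markers, Pecam1 had at most 6 counts and Kdr at most 30, but Tek had 250, 331 and 294 counts in KO libraries and 280, 297 and 291 in WT libraries. Tet3 had 76, 87 and 79 counts in KO libraries and 93, 127 and 104 in WT libraries (log2 fold change -0.24 ± 0.24 SE, edgeR adjusted p = 0.71). A count over the whole gene does not test the loss of single exons. KO library 1 stood apart in erythroid markers: the 4 measured genes summed to 119, 0 and 27.5 CPM (read counts scaled to a common library size) in KO libraries 1 to 3 and to 7.13, 1.69 and 1.99 CPM in WT libraries 1 to 3. The sort marker itself differed between the groups: Pdgfra fell, with 794, 943 and 840 counts in KO libraries and 1401, 1558 and 1246 in WT libraries (log2 fold change -0.52 ± 0.12 SE, edgeR adjusted p = 0.00598). Of the 10 preadipocyte markers tested, Cd34, Ly6a and Col1a1 rose, Pdgfra, Pdgfrb and Lum fell and 4 did not pass by edgeR. Col1a1 did not pass by DESeq2, and Col3a1 passed by limma-voom. Col1a1 had 61864, 39288 and 42343 counts in KO libraries and 39228, 40850 and 38765 in WT libraries. The summed level of the 10 markers was 74339, 61450 and 63321 CPM in KO libraries and 60388, 62420 and 60990 CPM in WT libraries. Col1a1 carried much of this: without it the sum was 42591, 41363.5 and 40027 CPM in KO libraries and 41736, 45127 and 41746 CPM in WT libraries. The summed level of 4 pericyte and smooth muscle markers was 14.9, 28.1 and 28.6 CPM for KO and 67.5, 52.1 and 42.7 CPM for WT. Most of this was Notch3, with 19, 44 and 32 counts in KO libraries and 127, 111 and 80 in WT libraries. Notch3, the 1 of them that could be tested, fell (log2 fold change -1.56 ± 0.32 SE, edgeR adjusted p = 0.00243). Rgs5 had at most 12 counts in any library, Acta2 at most 9 and Myh11 at most 6, so the sum says little about them. The 4 skeletal muscle markers summed to 53.4, 93.1 and 128 CPM for KO and 59.4, 13.1 and 76.5 CPM for WT. By edgeR, DESeq2 or limma-voom 0 of these 4 passed, with 1 at an unadjusted edgeR p under 0.05. DESeq2 gave an adjusted p for only 2 of them. The part of these cell types in the levels of ribosomal protein genes was not tested. Whether each library is 1 animal is not said in the labels, and the p-values may reflect technical spread only.

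The DNA around the starts of these genes was searched for short motifs. RefSeq start sites (build GRCm38.p6) were at hand for 68 of the 89 genes, with 80 starts in all. A run of at least 7 pyrimidines that opens with C lay within 20 bases of the start, on the gene's strand, at 37 of the 80 starts (46.2%) and at 18.7% of the 32771 starts of all other genes. Over the 67 starts of subunit proteins the share was 49.3%. The window holds bases on both sides of the start, and those before it are not part of the mRNA. So these are not shares of mRNAs that open with a TOP motif. The motif CCGGAAG, which ETS family factors such as GABP bind, was present on either strand within 250 bases before to 50 bases after the start at 33.8% of the members' starts and 8.80% of others. AAGATGGC, a core of YY1 sites, was found on either strand at 8 of the 80 members' starts and 2.73% of others. TATAAA, also on either strand, was found at 8 of the 80 and 13.6% of others. These are matches of letters in a window, and no binding was measured. The other starts were not limited to genes with reads here, so the shares do not compare the members with other expressed genes. The starts below belong to Rpl13, Rps13 and Rps10, genes with a small p in the comparison, to Rplp2 of the stalk, to Rps6 and Rpl15, subunit genes of low count, and to Rpl10l, which had no reads. Each line gives 15 bases on either side of the start, with pyrimidine runs of at least 7 letters, counted from their first C, in capitals.
Rpl13: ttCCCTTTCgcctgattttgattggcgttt
Rps13: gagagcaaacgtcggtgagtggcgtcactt
Rps10: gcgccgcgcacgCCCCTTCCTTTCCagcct
Rplp2: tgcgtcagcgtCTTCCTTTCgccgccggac
Rps6: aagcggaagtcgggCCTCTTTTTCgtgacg
Rpl15: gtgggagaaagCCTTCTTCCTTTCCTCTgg
Rpl10l: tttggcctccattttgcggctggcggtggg

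Counted from its first C, Rpl15 has the longest run of these 7 starts, 17 letters, followed by Rps10 with 13, Rps6 with 10, Rplp2 with 9 and Rpl13 with 7, while the windows of Rps13 and Rpl10l hold none. They lie at chr8:123102335-123102364 on the plus strand (Rpl13), chr7:116334176-116334205 on the minus strand (Rps13), chr17:27635230-27635259 on the minus strand (Rps10) and chr7:141447636-141447665 on the plus strand (Rplp2). Rps6 starts at chr4:86857353-86857382, Rpl15 at chr14:18270972-18271001 and Rpl10l at chr12:66284387-66284416, all 3 on the minus strand. The run of Rpl13 lies wholly before its RefSeq start.

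Of the 89 genes, 4 were near 0 in every library, with at most 10 counts in each, and none of the 4 is a standard subunit protein. Rpl10l, a paralog of Rpl10 known from testis, had 0 counts in all 6 libraries. At these depths a gene at 0 could lie at up to 1.53 to 1.65 CPM in a KO library and at up to 1.27 to 1.49 CPM in a WT library, the worth of 3 counts, which covers counting error only. Rpl3l, the paralog of Rpl3 used in striated muscle, had 0, 2 and 1 counts in KO libraries and 1, 1 and 0 in WT libraries. Rpl32l had 0, 1 and 0 counts in KO libraries and 2, 3 and 0 in WT libraries. Rps27rt, a retrotransposed copy of Rps27, had 0, 0 and 1 counts in KO libraries and 1, 1 and 0 in WT libraries. The same 4 genes were the ones that did not pass the filter on low counts, and limits of 3 or 30 counts also gave 4.

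Rps27rt is shown beside Rps27 because the sequences at their starts are nearly the same. Each line gives 30 bases from the start, with the shared stretch in capitals.
Rps27: cCTTTCCGGCGGTGACGACCTCCCTACGAG
Rps27rt: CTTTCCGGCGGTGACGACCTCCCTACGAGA

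The stretches lie at chr3:90213619-90213648 (Rps27) and chr9:114982710-114982739 (Rps27rt), both on the minus strand of GRCm38.p6. The identical stretch ran for 38 of the 50 bases after the start, from base 2 of Rps27 and from base 1 of Rps27rt. Rps27 had 782, 587 and 551 counts in KO libraries and 739, 906 and 657 in WT libraries. So almost all reads of the pair were counted on Rps27, and the sources used here do not say how reads that match both were treated. For the other copy, Rpl37rt, the longest shared stretch with Rpl37 over the 50 bases after each start was 4. The 2 starts need not be the same point of the copied sequence, and the rest of the transcripts was not compared. So this match does not say how alike the 2 genes are where reads fall. Rpl37rt had 168, 119 and 120 counts in KO libraries and 99, 176 and 170 in WT libraries.

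The 77 standard subunit genes were all detected, but their counts covered a wide span, from a mean of 25.8 counts per library for Rpl17 to 3111 for Rps29, with a median of 671. Counts are not divided by transcript length, which the files do not give, so this is a range of reads and not of mRNA levels. Means below 100 counts were found for 7 of them, the large-subunit genes Rpl7a, Rpl10a, Rpl15, Rpl17, Rpl19 and Rpl29 and the small-subunit gene Rps6. Rps6, whose protein is the classical substrate of the S6 kinases below mTORC1, had 66, 71 and 72 counts in KO libraries and 62, 77 and 45 in WT libraries. Rpl7a had 42, 43 and 32 counts in KO libraries and 48, 36 and 28 in WT libraries. Means of at least 1000 counts were found for 17, among them Rplp1, Rps20, Rpl37, Rps21 and Rpl23.

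Genes with few reads had more pseudogenes named after them. RefSeq lists 315 pseudogenes whose names carry the symbol of 1 of the 77 genes, spread over 62 of them. The 7 genes below 100 counts had between 4 and 14 each, with a median of 5. Among the 17 genes of at least 1000 counts, 10 had any, with a median of 1 and at most 5. Over the 77 genes, mean count and number of pseudogenes gave a Spearman rho of -0.51, a description across genes that share the same 6 libraries. There were exceptions: Rpl31 and Rps12 had 23 pseudogenes each, with 651 and 442 mean counts. Pseudogenes named only by number are missed by this count, and the part of shared reads in the low counts was not tested. In the count table itself the 12 pseudogene rows of this family were low as well, at most 8 counts in any library except for Rpl14-ps1 (27, 65 and 49 in KO libraries, and 29, 69 and 47 in WT libraries).

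**Figure D1:**
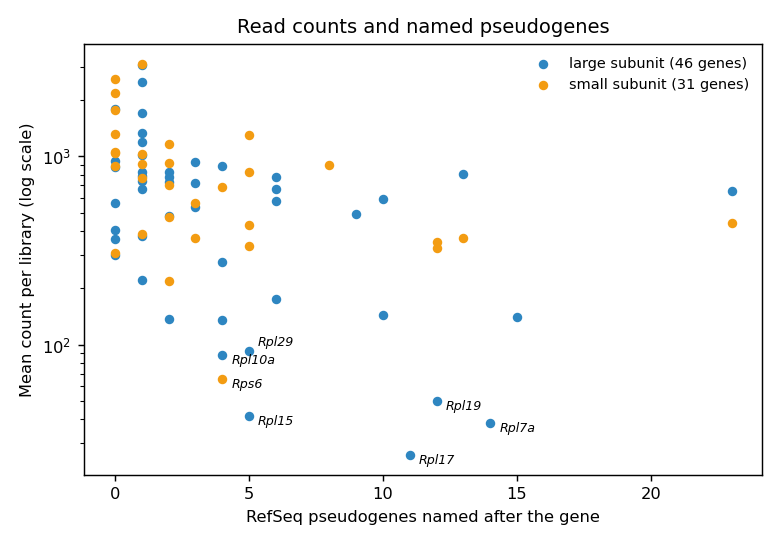
Mean read count per library (log scale) of the 77 subunit genes against the number of RefSeq pseudogenes named after each gene, one point per gene. The 7 labelled genes have means below 100 counts and between 4 and 14 named pseudogenes.

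The comparison of KO with WT asked whether these genes changed in preadipocytes when Tet3 was targeted. Among the 85 that could be tested, 4 rose, 1 fell and 80 did not pass (edgeR's quasi-likelihood test, Benjamini-Hochberg adjusted p under 0.05). Over all 9943 tested genes 3.59% passed, 1.82% higher and 1.77% lower in KO. Of the members, 73 had a high level, an average log2 CPM no lower than 6, and 5 of these passed, where 8.18% of all tested genes at such levels did. The changes were small, with log2 fold changes between -0.83 and 0.54 and 77 of 85 within 0.5 of 0. The median was 0.037, against -0.0024 over all tested genes, with 46 members above 0 and 39 below. Their median standard error was 0.14, against 0.30 over all tested genes. At an unadjusted p under 0.05 there were 12 members higher and 12 lower in KO, together 28.2% of the 85. Of all tested genes 15.5% lay under that limit. At the high level it was 23 of the 73 members (31.5%), against 24.5% of all tested genes at that level. KO and WT libraries did not overlap in 24 members (28.2%), 17 with KO above WT and 7 with KO below. Of all tested genes 20.4% did not overlap, 1005 with KO above and 1020 with KO below. At the high level 21 of the 73 members did not overlap (15 above, 6 below), against 28.03% of all tested genes there (440 above, 362 below).

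**Figure D2:**
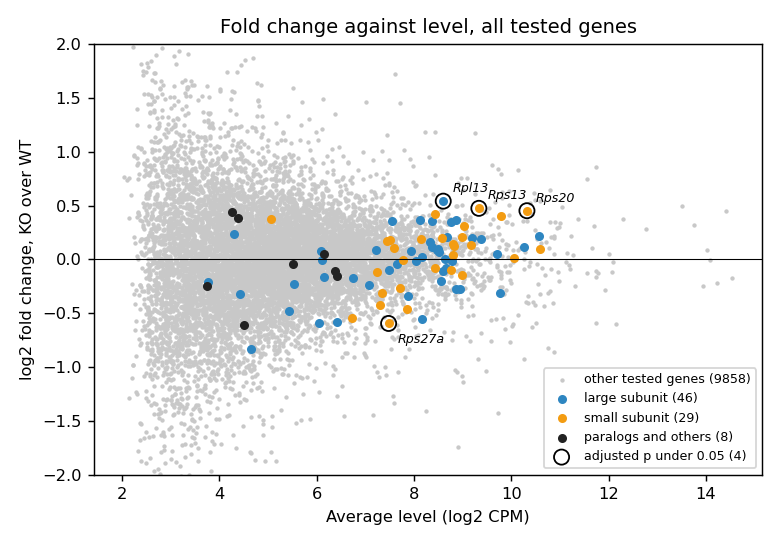
Log2 fold change of KO over WT against average level (log2 CPM) for the tested genes, with 83 of the ribosomal protein genes coloured by subunit and the 4 of these that passed an adjusted p of 0.05 circled. The coloured points stay between -0.83 and 0.54, and 48 other genes beyond 2 in either direction lie outside the axis.

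Rpl13, a protein of the large subunit, had the smallest p. Its level was 537, 373 and 466 CPM in KO libraries 1 to 3, and 310.0, 301 and 335 CPM in WT libraries 1 to 3. Each KO library lay above every WT library, and KO library 1 was the highest. The mean was 459 ± 82.5 CPM in KO and 315 ± 17.2 CPM in WT (SD, n = 3 each). The log2 fold change was 0.54 ± 0.13 (SE, edgeR adjusted p = 0.0155).

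Rps20 and Rps13, which also rose, encode proteins of the small subunit. Rps20, a protein of its head, stood at 1728, 1184 and 1513 CPM in KO libraries, against 1069, 1082 and 1085 CPM in WT libraries. The WT values were almost level while the KO values spread widely, all of them above WT (log2 fold change 0.45 ± 0.11 SE, edgeR adjusted p = 0.0204). Rps13 had 927, 620 and 698 CPM in KO libraries and 554, 567 and 494 CPM in WT libraries. Again the groups did not overlap and KO library 1 was far above the other two (0.47 ± 0.13, edgeR adjusted p = 0.0333).

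Rps27a fell. This gene encodes ubiquitin fused to a protein of the small subunit, which is cut off after translation. Its level was 171, 118 and 134 CPM in KO libraries and 190, 245 and 205 CPM in WT libraries, without overlap (log2 fold change -0.59 ± 0.16 SE, edgeR adjusted p = 0.0291). Fau, a fusion of a ubiquitin-like protein with a ribosomal protein, is left out by the symbol rule. It had 417, 297 and 276 counts in KO libraries and 436, 403 and 350 in WT libraries (log2 fold change -0.091, 95% interval -0.41 to 0.23). It did not pass, and its difference from Rps27a was not tested.

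**Figure D3:**
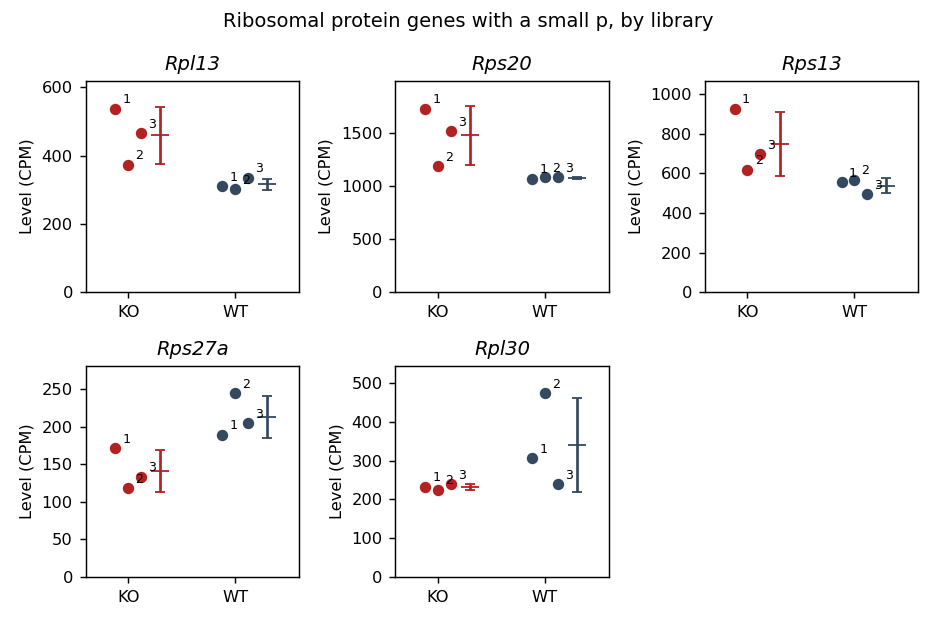
Level in CPM (linear axis from 0) of 4 ribosomal protein genes that passed and of Rpl30, in KO and WT libraries; points are libraries with their numbers, and the bars beside them give mean and SD (n = 3). KO library 1 is the highest library for Rpl13, Rps20 and Rps13, and WT library 2 for Rps27a and Rpl30.

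The 5 calls depended on which libraries were in the fit. Leaving out KO library 1 left 1 called member, Rps27a (2.64% of all tested genes called), and leaving out WT library 2 left 1, higher in KO (2.2%). Leaving out KO library 3 or WT library 1 left 0 by edgeR, with 15 and 22 members at an unadjusted p under 0.05 (1.53% and 1.97% of all tested genes called). Without WT library 3 there were 2, Rpl30 and Rps16, both lower in KO (2.33%). Without KO library 2 there were 7, all higher in KO, among them Rpl7, Rpl13, Rps10, Rps13, Rps14 and Rps20 (3.59%). Rpl13, Rps20 and Rps13 therefore kept their call in 1 of the 6 reduced fits, that without KO library 2. Rps27a kept it in 1, without KO library 1. The directions of all 5 held in each of these 6 fits. With any 1 library left out the log2 fold change lay between 0.41 and 0.66 for Rpl13, between 0.32 and 0.58 for Rps20, between 0.29 and 0.59 for Rps13 and between -0.76 and -0.49 for Rps27a. With all libraries in, 5 members passed with RLE factors (3.6% of all tested genes) and with factors computed without the members (3.58%). There were 6 with a filter of 30 counts (5.01%), 6 with DESeq2 (5.07%) and 6 with limma-voom (3.37%), where the last 2 tools added Rps14. There were 8 with no filter (2.88%) and 8 with the library number as a block (5.04%). With KO library 1 and WT library 2 both left out, 2 members passed, with Rps27a among them (3.07%).

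Other members with a small p did not pass in the main edgeR fit, with the standard filter, all libraries in and no block. Rps14 passed by DESeq2 and limma-voom, with no filter and with the library number as a block. Rps10 passed with no filter and with the block, and Rpl30 with no filter, with the filter of 30 counts and with the block. Rps14, on the platform of the small subunit, had 1160, 843 and 998 CPM in KO libraries and 881, 655 and 726 CPM in WT libraries (log2 fold change 0.41 ± 0.12 SE, edgeR adjusted p = 0.0628). Rps10 had 495, 334 and 348 CPM in KO libraries and 291, 298 and 288 CPM in WT libraries (0.43 ± 0.14, edgeR adjusted p = 0.0912). The groups overlapped in Rps14 and were separate in Rps10. Rpl30 had 233, 224 and 239 CPM in KO libraries and 305, 473 and 238 CPM in WT libraries (-0.55 ± 0.17, edgeR adjusted p = 0.0624). WT library 2 alone was far above the KO values of Rpl30, and without it the log2 fold change was -0.23.

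Rpl23, Rps23, Rpl10 and Rps2 complete the 6 members with the smallest p below 0 on the log2 scale. Rpl23 had 751, 856 and 728 CPM in KO libraries and 865, 1053 and 979 CPM in WT libraries (edgeR adjusted p = 0.133). Rps23, a protein of the decoding centre, had 93.4, 95.1 and 66.0 CPM in KO libraries and 112, 162 and 97.8 CPM in WT libraries (edgeR adjusted p = 0.133). In both genes the groups were separate, as in the next pair. Rpl10, a protein that joins the large subunit late in its assembly, had 77.0, 75.7 and 50.6 CPM in KO libraries and 79.4, 131 and 93.3 CPM in WT libraries (edgeR adjusted p = 0.141). Rps2 had 144, 145 and 114 CPM in KO libraries and 170, 204 and 167 CPM in WT libraries (edgeR adjusted p = 0.144). WT library 2 held the highest level of all 4. The lowest log2 fold change, chosen after its value was seen, was that of Rpl19, with 40, 35 and 24 counts in KO libraries and 60, 88 and 53 in WT libraries (-0.83 ± 0.33 SE, edgeR adjusted p = 0.195).

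The stalk of the large subunit, which brings in the elongation factors, is built from Rplp0, Rplp1 and Rplp2. Rplp1 stood at 1996, 1411 and 1457 CPM in KO libraries and at 1434, 1366 and 1383 CPM in WT libraries (log2 fold change 0.22, 95% interval -0.015 to 0.45). Rplp0 stood at 750, 577 and 556 CPM in KO libraries and at 528, 580 and 533 CPM in WT libraries (0.20, interval -0.052 to 0.45). Rplp2 stood at 1008, 735 and 809 CPM in KO libraries and at 847, 851 and 764 CPM in WT libraries (0.051, interval -0.19 to 0.29). All 3 were highest in KO library 1 and overlapped between groups, and 0 passed by edgeR, DESeq2 or limma-voom, with 0 at an unadjusted p under 0.05 by edgeR. Rpsa, a small-subunit protein also known as the laminin receptor precursor, had 192, 170 and 185 CPM in KO libraries and 191, 156 and 140 CPM in WT libraries (0.17, interval -0.14 to 0.48).

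The paralogs and other members did not pass either, with 0 of 8 by edgeR and limma-voom. By DESeq2 it was 0 of the 7 that had an adjusted p. At an unadjusted p under 0.05 by edgeR there were 0. Rpl22l1, the paralog of Rpl22, had 91.9, 73.6 and 72.1 CPM in KO libraries and 89.9, 94.4 and 71.5 CPM in WT libraries (log2 fold change -0.11, 95% interval -0.50 to 0.29). Rps27l, a paralog of Rps27, had 96.0, 80.3 and 63.3 CPM in KO libraries and 81.3, 105 and 80.9 CPM in WT libraries (-0.16, interval -0.56 to 0.25). Both overlapped between groups. Rpl7l1 had 90, 79 and 81 counts in KO libraries and 65, 158 and 74 in WT libraries. Rpl36al had 35, 40 and 23 counts in KO libraries and 58, 73 and 39 in WT libraries (-0.61, interval -1.33 to 0.12). Rpl39l had 7, 28 and 30 counts in KO libraries and 41, 19 and 27 in WT libraries, and Rps4l, a transcribed pseudogene in RefSeq, had 35, 58 and 36 and 37, 63 and 14. At such counts the intervals were wide, from -1.30 to 0.80 for Rpl39l and from -0.45 to 1.22 for Rps4l. Rps19bp1 matches the symbol rule but encodes a nucleolar protein that binds Rps19 and is no ribosomal protein; it had 50, 36 and 34 counts in KO libraries and 34, 28 and 37 in WT libraries.

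By subunit, the large-subunit genes had 1 of 46 up and 0 down, with a median log2 fold change of 0.0027, 23 above 0 and 23 below. The small-subunit genes had 3 of 31 up and 1 down, with a median of 0.13, 20 above 0 and 11 below. Beside these counts, 1.82% of all tested genes passed higher and 1.77% lower in KO, and 8.18% of those at a high level passed in either direction. The difference between the subunits was not tested.

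The levels of these genes differed between libraries of the same group as well. KO library 1 held the highest level in 43 of the 85 members (50.6%) and WT library 2 in 31 (36.5%). Over all tested genes KO library 1 was highest in 18.8% and WT library 2 in 21.1%. The other 4 libraries together held the highest level in the remaining 11 members. Among small-subunit genes KO library 1 was highest in 21 of 31 and lowest in 0, and among large-subunit genes it was highest in 20 of 46. Within KO, 74 of 85 members lay above their group mean in library 1, against 25 in library 2 and 22 in library 3. Within WT, 68 lay above it in library 2, against 38 in library 1 and 18 in library 3. On the log2(CPM + 1) scale the median member stood 0.23 above the KO mean in KO library 1, where the median of all genes stood 0.013 above it.

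**Figure D4:**
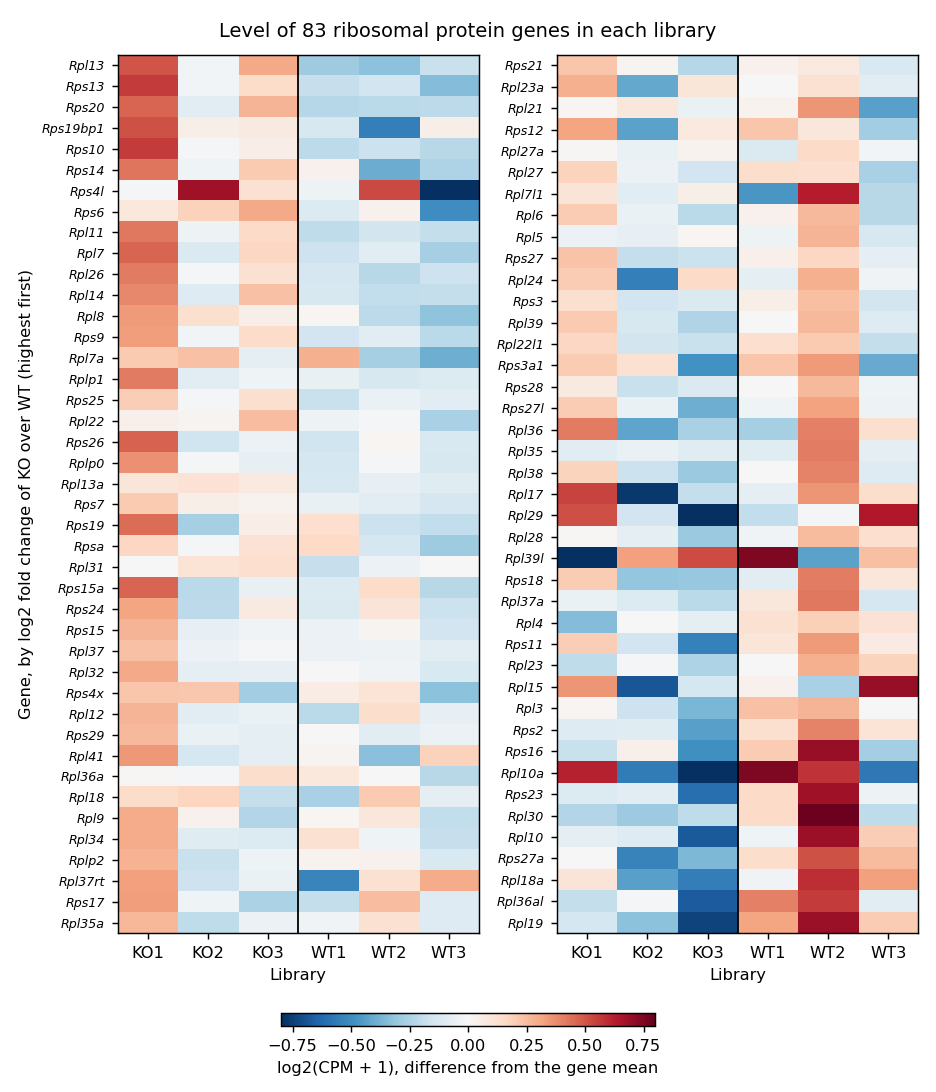
Level of 83 of the tested genes in each library, as log2(CPM + 1) minus the mean of the gene over 6 libraries, with genes ordered by log2 fold change of KO over WT and colours that end at 0.8 in either direction. KO library 1 is the highest library in 41 of these genes, mostly in the left panel, and WT library 2 in 31, mostly in the right panel.

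Of the 77 subunit genes, 41 were highest in KO library 1, among them Rpl13, Rps13, Rps20, Rplp0, Rplp1 and Rps26, with a median log2 fold change of 0.14. WT library 2 was highest in 27, among them Rpl3, Rpl4, Rpl5, Rpl30, Rps2, Rps16 and Rps27a, with a median of -0.27. These groups were formed from the levels themselves, so their medians are a description. Rps26, chosen after its values were seen, had 1012, 656 and 659 counts in KO libraries and 706, 895 and 695 in WT libraries. Rps16, also chosen after its values were seen, had 382, 447 and 286 counts in KO libraries and 538, 851 and 369 in WT libraries. The erythroid markers and Col1a1 were highest in KO library 1 as well, and their part in the levels of these genes was not tested.

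The summed level of all 89 genes was 34785, 27700 and 28673 CPM in KO libraries and 28313, 30381 and 26894 CPM in WT libraries. KO library 1 was above every WT library, while KO libraries 2 and 3 lay within the WT range. The means were 30386 ± 3841 CPM in KO and 28529 ± 1754 CPM in WT (SD, n = 3 each), a log2 ratio of 0.091, and -0.017 without KO library 1. The small-subunit genes summed to 14346 ± 2153 CPM in KO and 12978 ± 756 CPM in WT, and the large-subunit genes to 15694 ± 1657 and 15190 ± 960.5 CPM in the same order. In bulk samples, fewer cells of a type and less RNA per cell cannot be told apart.

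**Figure D5:**
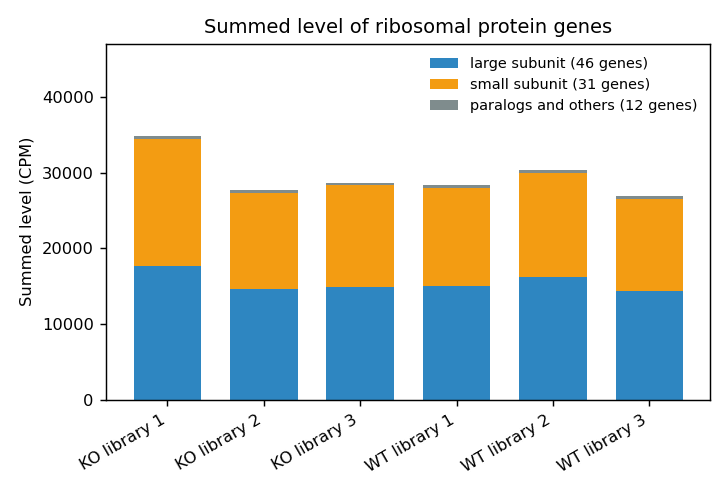
Summed level in CPM (linear axis from 0) of the 89 genes in each library, stacked by subunit. KO library 1 reaches 34785 CPM and the other 5 libraries lie between 26894 and 30381 CPM.

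A gene whose groups were separate and tight need not pass. Rpl13a, chosen after its values were seen, had 704, 712 and 696 CPM in KO libraries and 603, 628 and 617 CPM in WT libraries. Each KO library lay above every WT library, yet the log2 fold change was 0.19 (95% interval -0.030 to 0.42, edgeR adjusted p = 0.421). The SD was 8.15 CPM in KO and 12.7 CPM in WT. The edgeR fit shares information on spread between genes, so this interval does not reflect the spread of Rpl13a alone.

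Counts for other genes of translation are set beside all tested genes, of which 3.59% passed and 15.5% had an unadjusted p under 0.05. Of 11 tested genes in a list of elongation and release factors, to which Tpt1 was added, 0 rose and 1 fell, with 3 at an unadjusted p under 0.05. The gene that fell was Tpt1, a translationally controlled protein whose mRNA carries a TOP motif, with 574, 591 and 487 counts in KO libraries and 772, 1206 and 715 in WT libraries (log2 fold change -0.51 ± 0.14 SE, edgeR adjusted p = 0.0315). Its call was lost without KO library 3, WT library 1 or WT library 2 (adjusted p up to 0.306), and its log2 fold change was -0.33 without WT library 2. Eef1a1, which delivers aminoacyl-tRNA, had 2969, 2847 and 2058 counts in KO libraries and 3324, 5107 and 2829 in WT libraries (edgeR adjusted p = 0.188). Eef2, the translocase, had 3216, 2517 and 2504 counts in KO libraries and 2530, 2281 and 2428 in WT libraries (edgeR adjusted p = 0.0811), and it passed by DESeq2 and limma-voom.

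Of 35 tested initiation factors and 43 tested ribosome biogenesis genes, 0 passed by edgeR, DESeq2 or limma-voom. At an unadjusted edgeR p under 0.05 there were 1 and 3, all higher in KO. DESeq2 gave an adjusted p for only 33 and 32 of them. Of 12 tested snoRNA hosts and other genes with TOP mRNAs, Vim fell and 11 did not pass. At an unadjusted p under 0.05 there were 4 of the 12, all lower in KO, and the median log2 fold change of the list was -0.18. Vim, the intermediate filament gene of mesenchymal cells, had 3309, 2928 and 2827 counts in KO libraries and 4149, 5198 and 4251 in WT libraries (log2 fold change -0.40 ± 0.10 SE, edgeR adjusted p = 0.0140). Its adjusted p exceeded 0.05 without KO library 3, WT library 2 or WT library 3 (up to 0.0988), while its log2 fold change lay between -0.46 and -0.37 with any 1 library left out. Of 19 tested genes of the mTORC1, MYC and ribosomal protein control list, Larp4 rose and 18 did not pass by edgeR, with 4 at an unadjusted p under 0.05. Larp4, which binds mRNA and poly(A)-binding protein and stabilises mRNAs, had 170, 131 and 151 counts in KO libraries and 89, 106 and 79 in WT libraries (0.91 ± 0.22, edgeR adjusted p = 0.0133). Its adjusted p exceeded 0.05 without KO library 1 or 3 or WT library 1 or 3 (up to 0.0993), while its log2 fold change lay between 0.83 and 1.01 with any 1 library left out.

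Larp1, a regulator of TOP mRNAs, had 96, 57 and 70 counts in KO libraries and 83, 109 and 111 in WT libraries, and Myc had 30, 33 and 21 counts in KO libraries and 41, 95 and 37 in WT libraries. Neither passed by edgeR. Yy1, a transcription factor of the same list, passed by DESeq2 only. Of 10 tested genes of the integrated stress response and 70 tested mitochondrial ribosomal proteins, 0 passed by edgeR, DESeq2 or limma-voom. At an unadjusted edgeR p under 0.05 there were 0 and 7. DESeq2 gave an adjusted p for only 9 and 48 of them. The mitochondrial ribosomal proteins had a median log2 fold change of -0.070 and summed to 1456 ± 56.9 CPM in KO and 1486 ± 54.5 CPM in WT (SD, n = 3 each). Their sum was 1511 CPM in KO library 1, which lay inside the WT range of 1425 to 1531 CPM. For elongation and release factors the KO library 1 sum was above every WT library (5009, WT up to 4881), as for the cytosolic genes. So it was for initiation factors (5308, WT up to 5185) and the 3 ribosomal proteins outside the symbol rule (1147, WT up to 1010). It lay inside the WT range for ribosome biogenesis (1883 to 2044) and the integrated stress response (796 to 870). For the TOP-mRNA and snoRNA host list (2545, WT from 2888) and the mTORC1 list (1177, WT from 1183) it lay below.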

How the data were processed

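RNA was selected by poly(A), per the labels' protocols. The authors deposited raw read counts per gene symbol, without normalization. The submitters' processing notes list HISAT2 2.2.1, HTSeq 0.9.1 and DESeq2 1.36.0, among others, and, as builds, mm10, mm39 and GRCm39, giving no roles. The sources used here do not state the strand setting or the treatment of reads with several matches. The WGBS pools were not used, since their regions carry no gene names and no stated build.

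Counts were tested with edgeR 4.0.16 (R 4.3.3, limma 3.58.1): filterByExpr (minimum count 10, minimum total 15), TMM factors and the quasi-likelihood test, KO against WT, over all 9943 kept genes, with Benjamini-Hochberg adjustment at 0.05. Standard errors and 95% intervals come from the F statistic. CPM use effective library sizes. Alternatives were DESeq2 1.42.0, limma-voom, RLE factors, other filters, a replicate block and leaving out libraries. Members and lists were chosen with earlier results of these data known. A few genes are counted in the totals but not reported here by name or drawn in plots of single named genes. Named members were those that passed, the 6 with the smallest p in each direction, stalk genes, paralogs, members near 0 and called genes of the other lists. A part of the rule that ranks genes by level per coding length was not applied, because lengths are not used here. The list of mitochondrial ribosomal proteins was added after the values were seen.

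Simulated counts for KO against WT (9943 genes) gave calls for 55% of 100 genes changed 2-fold and 89% of 100 changed 4-fold. Of the 155 calls, 11 were false. The changed genes were drawn at random from all tested genes, whose median standard error was 0.30 in the data, against 0.14 for the members. So these shares do not describe the members. Libraries of 1 group differed by a chi-square of 4.05 to 7.13 per degree of freedom, so none were merged.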

Additional observations from a re-analysis of the deposited data

How the results depend on the processing

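The count of 5 called members stayed within 1.5 times under RLE factors, factors without the members, a filter of 30 counts, DESeq2 and limma-voom, at 5 or 6. It was 8 with no filter and 8 with the library number as a replicate block. The labels do not say whether the library numbers pair the samples. Deviations of same-numbered KO and WT libraries correlated at 0.020, 0.017 and -0.00012. Libraries with unlike numbers correlated at -0.058 to 0.039. With 3 libraries a group such values do not settle whether the samples are paired. All genes called under the block were 501, against 357 without it. Leaving out 1 library gave 0 to 7 called members, 158 to 370 called genes in all, a median log2 fold change of the members between -0.078 and 0.10, and a log2 ratio of their summed level between -0.017 and 0.15. With KO library 1 and WT library 2 left out together, an alternative chosen after seeing the data, 2 members passed, with Rps27a among them, and the median was -0.042. The count of 4 members near 0 was the same in each setting run. Directions turned for 3 named members that did not pass. For Rplp2 the log2 fold change was -0.061 with both libraries left out and -0.088 to 0.14 with 1 left out. For Rpl7l1 it was 0.018 under limma-voom, 0.026 under the block, 0.33 with both left out and -0.26 to 0.37 with 1 left out. For Rpl39l it ran from -0.60 to 0.18 with 1 left out. The causes were not tested. With 3 libraries a group and a standard error near 0.14, changes well under 0.5 on the log2 scale are hard to call at this depth.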
